A study of Mus musculus with 13 samples.

Results

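Chemokines are small secreted or membrane-bound proteins that guide leukocytes, and chemokine receptors are the G protein-coupled receptors that read them. The genes described here are 41 mouse chemokine genes, 26 ligands and 15 receptors, out of 19505 genes that the arrays name. Each was taken from the deposited value table through its platform gene symbol. All 41 were found, each with 1 probe set. The rule uses gene symbols and no level or difference.

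Expression was measured in the whole colon and ileum of female FVB mice that bore a syngeneic mammary carcinoma expressing human HER2. Treated mice received vancomycin, a glycopeptide antibiotic active on Gram-positive bacteria, at 200 mg/L in their water from 4 weeks of age. Tissues were taken at 9 weeks (the labels leave unclear if this is age or time on treatment), when tumours measured 150 mm3. The 13 arrays form 4 groups: ileum without antibiotic (3 arrays, replicates 1, 2 and 3), ileum with vancomycin (3 arrays, replicates 11, 13 and 14), colon without antibiotic (4 arrays, replicates 1, 2, 3 and 5) and colon with vancomycin (3 arrays, replicates 11, 13 and 14). Every group carried the tumour, so the tumour is common to all comparisons and no tumour-free mice are included. The labels do not say that each array came from its own mouse, so a p-value here measures spread among samples that may be technical repeats.

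In the gut, chemokines act in axes of a ligand and its receptor. CCL25 from the small intestinal epithelium draws CCR9-bearing T cells, CXCL9, CXCL10 and CXCL11 are interferon-induced ligands of CXCR3 on activated T cells, and CCL20 draws CCR6-bearing cells to lymphoid follicles. CX3CL1 is a membrane-bound ligand of CX3CR1 on macrophages, CCL19 and CXCL12 organise lymphoid tissue through CCR7 and CXCR4, and CXCL1, CXCL2 and CXCL5 draw neutrophils through CXCR2.

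The values are log2 expression values after robust multi-array averaging (RMA), on which 1 unit is nominally a factor of 2. The members ran from 3.98 to 11.92 on this scale, and a level is not called present or absent here. Levels of different genes come from different probes and are not set against each other. Tissue labels matched the markers: the means of 5 colon genes were 12.69 to 14.26 in the colon and 7.43 to 7.89 in the ileum, and those of 8 ileal genes were 13.68 to 14.96 in the ileum and 6.90 to 7.90 in the colon. Replicate 11 of the ileum with vancomycin stood apart. Its mean over 9 B cell and follicle markers was 10.09, against 7.21 to 7.96 in the other ileal arrays, and its smooth muscle mean was 14.81, against 13.22 to 13.87. Results that rest on it are given with and without it. These are whole-tissue RNA samples, in which fewer cells of a type and less RNA per cell cannot be told apart.

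Across the 5 comparisons of the design, 10 of the 41 genes passed an adjusted p of 0.05 at least once (limma, Benjamini-Hochberg over 19572 probe sets). They were 7 ligands (Ccl3, Ccl4, Ccl5, Ccl20, Cxcl9, Cxcl11 and Cx3cl1) and 3 receptors (Ccr1, Ccr9 and Cxcr6). The other 31 passed in none. With vancomycin 1 member was lower in the ileum, Ccl5, where 0.536% of all probe sets passed and 0.485% passed as lower. In the colon 0 members passed, by limma or with array weights, where 0.0102% of probe sets passed by limma. At an unadjusted p under 0.05, 9 of 41 members differed in the ileum (2 higher, 7 lower) against 10.1% of all probe sets. In the colon 6 of 41 did (2 higher, 4 lower), a share near the background of 15.9%. The colon differed from the ileum for 8 members without antibiotic, all lower in the colon, where 20.5% of probe sets passed and 9.59% passed as lower. The share of members that passed is near the background, and the share that passed as lower is above its own. With vancomycin it differed for 6 members, 5 lower and 1 higher in the colon, where 15.1% passed (7.67% lower, 7.45% higher). Again the share that passed is near the background and the share that passed as lower is above it. Of the 5 lower calls, those of Ccr1, Cx3cl1 and Ccr9 were lost in some alternative fits given below. The members were chosen with earlier results of these data known, and their shares were not tested against the backgrounds. For 0 members did the vancomycin effect itself differ between ileum and colon by limma, while 8 had an unadjusted p under 0.05 and 2 passed with array weights (Ccl5 and Ccr9). The backgrounds were 0.189% for the limma call and 8.01% for the unadjusted p, and none was computed with array weights. The number of arrays limits all of these counts.

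The median member shifted little: by -0.08 with vancomycin in the ileum, where the median probe set shifted by 0.02, and by -0.01 in the colon, also against 0.02. From ileum to colon the median member differed by -0.05 without antibiotic (all probe sets 0.04) and by -0.08 with vancomycin (all probe sets 0.04). The vancomycin groups did not overlap for 11 members in the ileum (9 lower, 2 higher), against 16.9% of all probe sets (8.34% lower, 8.57% higher). In the colon they did not overlap for 3, against 12.3%. The tissues did not overlap for 11 members without antibiotic, against 32.2%, and for 12 with vancomycin, against 27.4%.

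**Figure D1:**
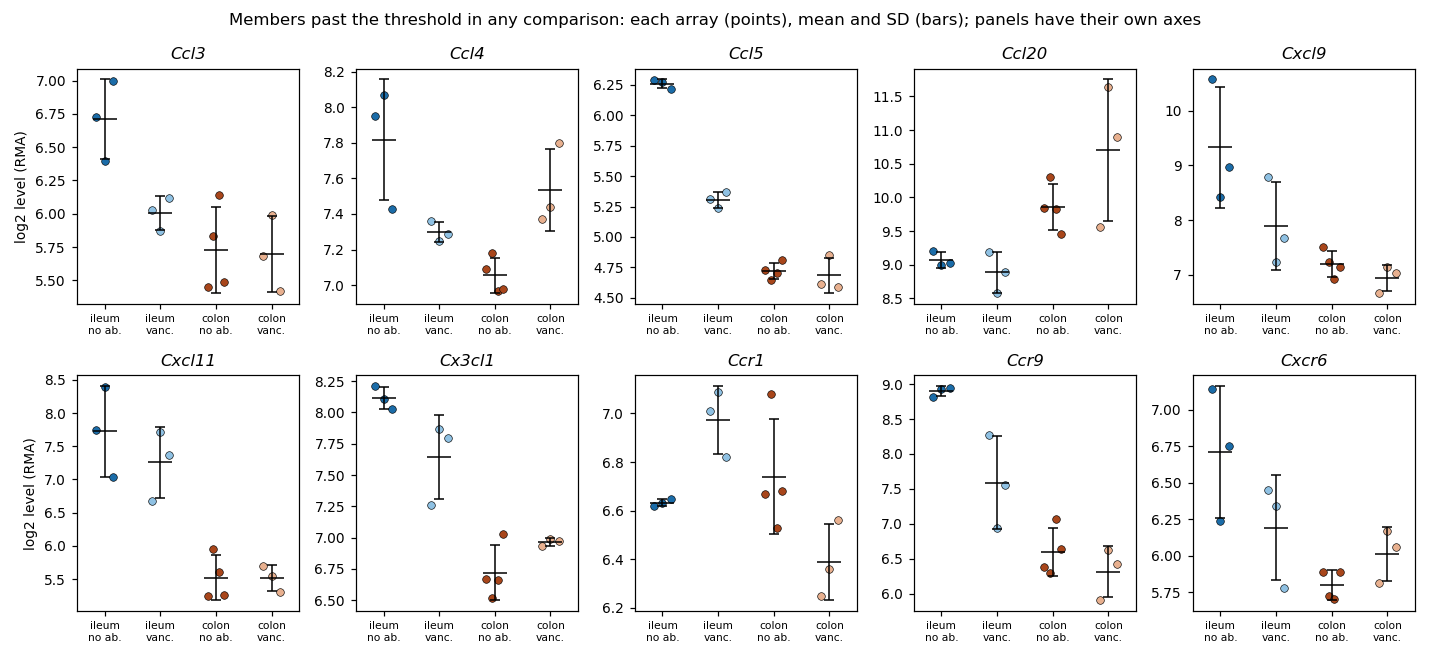
Log2 RMA level (vertical axes, own scale per panel) of the 10 members past the threshold in any comparison, by group, with 1 point per array and bars for the mean and SD. In Ccl5 the 3 untreated ileal arrays lie at 6.22 to 6.29 and the 3 vancomycin arrays at 5.24 to 5.37, while both colonic groups lie at 4.59 to 4.85.

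Ccl5 (RANTES), a ligand made by T cells and other lymphocytes, was the member that fell with vancomycin in the ileum. Its log2 levels in the untreated ileum were 6.29, 6.27 and 6.22, with a mean of 6.26 ± 0.036 (SD, n = 3). With vancomycin they were 5.31, 5.24 and 5.37, with a mean of 5.31 ± 0.065 (SD, n = 3). The groups were far apart compared with their spread. The difference was -0.95 ± 0.12 (SE), a 1.94-fold lower level, with an adjusted p of 0.00165 (limma). Without each ileal array in turn it stayed between -0.98 and -0.92 and past the threshold. With only the ileal arrays in the fit the difference was the same and its adjusted p was 0.0524.

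In the colon, Ccl5 was 4.73, 4.65, 4.70 and 4.81 without antibiotic and 4.61, 4.85 and 4.59 with vancomycin, so the groups overlapped. The colonic difference was -0.04 ± 0.12 (95% interval -0.29 to 0.21). Ccl5 was among the 33.3% dimmest probe sets, and its level was not compared with background. Whether a fall could show at these low colonic levels was not tested, which also limits the comparison of the effects. The ileal effect exceeded the colonic by -0.91 ± 0.17, with an adjusted p of 0.0517 in limma. That value was 0.00850 with array weights, 0.0364 with a trended and robust spread, and 0.0350 with values above 16 set to 16. Ccl5 was lower in the colon than in the ileum by -1.54 ± 0.12 without antibiotic (adjusted p = 3.07e-07, limma) and by -0.62 ± 0.12 with vancomycin (adjusted p = 0.00296). The comparison of tissues without antibiotic and the ileal effect share the untreated ileal arrays, so their values are not independent.

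Mean levels of T cell markers and of cytotoxic and intraepithelial lymphocyte markers were lower in the same groups as Ccl5. B cell and follicle markers were not lower with vancomycin in the ileum, where 9 of 9 had a positive difference and 0 passed. The mean of 10 cytotoxic and intraepithelial lymphocyte markers was 9.87 to 9.95 in the untreated ileum, 7.80 to 8.66 with vancomycin, 6.55 to 6.83 in the untreated colon and 6.79 to 7.12 in the colon with vancomycin. Of these 10 markers, 7 passed as lower with vancomycin in the ileum and 0 passed in the colon. For 9 of 10 listed T cell markers with a named probe set, the means were 9.56 to 9.97, 8.56 to 9.48, 7.51 to 8.07 and 7.62 to 8.12 in the same order of groups, and 1 of the 9 passed as lower in the ileum. The part of the listed lymphocyte markers in the Ccl5 difference was not tested.

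Ccl3 (MIP-1 alpha) and Ccl4 (MIP-1 beta), relatives of Ccl5 that lie in the same run of genes on chromosome 11, were both lower in the untreated colon than in the untreated ileum. Whether the probes of Ccl3 and Ccl4 each read only 1 of these genes was not checked. Ccl3 was 6.73, 6.40 and 7.0 in the untreated ileum and 5.45, 5.83, 6.14 and 5.49 in the untreated colon. No colonic array reached the lowest ileal one, and the difference was -0.98 ± 0.20 (adjusted p = 0.00258, limma). With vancomycin the ileal values were 6.03, 5.87 and 6.12, all below the untreated ones, a difference of -0.70 ± 0.21 that did not pass (adjusted p = 0.235). It passed with array weights, at -0.78 and an adjusted p of 0.0189 (limma). In the colon with vancomycin Ccl3 was 5.68, 5.99 and 5.42, within the untreated range, and the colonic difference was -0.03 ± 0.20.

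Ccl4 had vancomycin differences of opposite sign in the tissues. Its levels were 7.95, 8.07 and 7.43 in the untreated ileum and 7.36, 7.25 and 7.29 with vancomycin. In the colon they were 7.09, 7.18, 6.97 and 6.98 without antibiotic and 7.37, 7.44 and 7.80 with vancomycin. Every vancomycin array lay below its controls in the ileum and above them in the colon. The differences were -0.52 ± 0.17 (adjusted p = 0.313) and 0.48 ± 0.16 (adjusted p = 0.195), neither past the threshold in limma. The ileal one passed with array weights (-0.57, adjusted p = 0.0388). The difference between the effects was -0.998 ± 0.24, with an adjusted p of 0.177. Without antibiotic Ccl4 was lower in the colon by -0.76 ± 0.16 (adjusted p = 0.00371, limma), and with vancomycin it was higher in all 3 colonic arrays than in all 3 ileal ones, by 0.24 ± 0.17 (adjusted p = 0.432).

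Ccr1, a receptor for Ccl3, Ccl5, Ccl7 and Ccl9 on myeloid cells, had the reverse pattern of signs. Its levels were 6.62, 6.63 and 6.65 in the untreated ileum and 7.01, 7.09 and 6.82 with vancomycin. They were 6.67, 7.08, 6.53 and 6.68 in the untreated colon and 6.25, 6.36 and 6.56 with vancomycin. The ileal groups did not overlap, with vancomycin higher, and the colonic groups overlapped. The vancomycin differences were 0.34 ± 0.16 (adjusted p = 0.488) and -0.35 ± 0.15 (adjusted p = 0.269), and the difference between them was 0.69 ± 0.21 (adjusted p = 0.354), none past the threshold in limma. Under vancomycin Ccr1 was lower in the colon than in the ileum by -0.58 ± 0.16 (adjusted p = 0.0205, limma). That call was lost without colonic replicate 11 (-0.51, adjusted p = 0.0777), without colonic replicate 13 (-0.57, adjusted p = 0.0606) and without ileal replicate 13 (-0.52, adjusted p = 0.0851). It was also lost with only the 2 groups in the fit (adjusted p = 0.0671) and with the replicate number as a block (adjusted p = 0.0533). Ccl9, a ligand of Ccr1, ranged from 9.80 to 10.79 over all arrays and passed in no comparison.

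**Figure D2:**
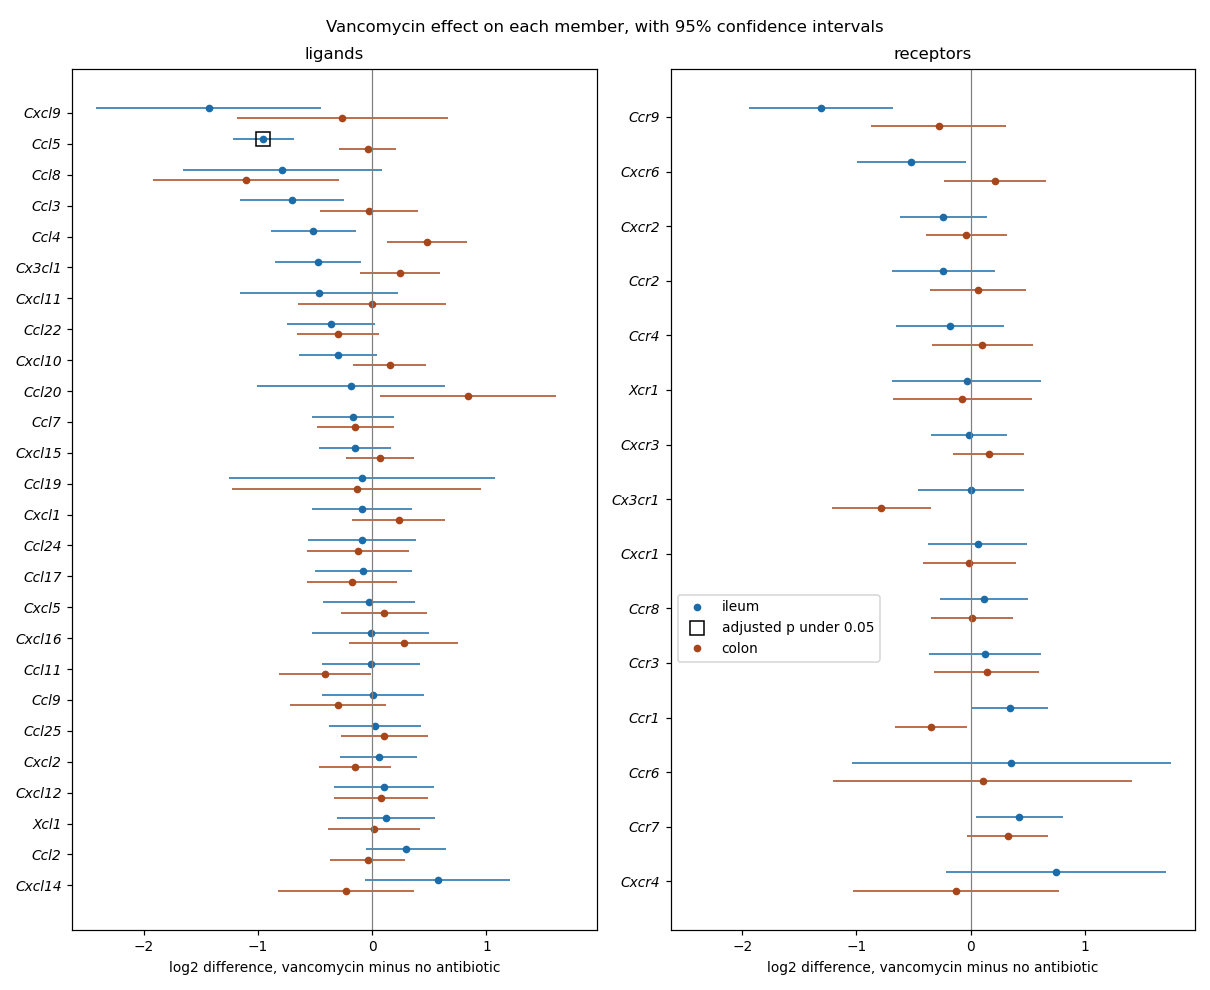
Vancomycin minus no antibiotic, as a log2 difference with its 95% confidence interval (horizontal axis), for each of the 26 ligands and 15 receptors, in ileum (blue) and colon (brown). The square marks Ccl5 in the ileum at -0.95, the only difference with an adjusted p under 0.05, and the intervals of Ccl4 lie on opposite sides of 0 in the tissues.

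Ccr9, the gut-homing receptor of T cells and intraepithelial lymphocytes, separated ileum from colon most widely among the 15 receptors. Its levels were 8.82, 8.93 and 8.95 in the untreated ileum and 6.38, 6.30, 7.07 and 6.64 in the untreated colon. All ileal arrays lay above all colonic arrays. The colon was lower by -2.30 ± 0.27 (adjusted p = 2.95e-05, limma). With vancomycin the ileal values were 8.27, 6.94 and 7.56 and the colonic values 5.91, 6.62 and 6.42, again without overlap, a difference of -1.27 ± 0.29 (adjusted p = 0.00806). With only those 2 groups in the fit this adjusted p was 0.0596, and with array weights the difference was -0.76 (adjusted p = 0.0322).

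Within the ileum, all 3 vancomycin arrays had less Ccr9 than all 3 untreated arrays. The mean was 8.90 ± 0.07 without and 7.59 ± 0.67 with vancomycin (SD, n = 3 each), a difference of -1.31 ± 0.29 that did not pass the threshold (adjusted p = 0.0717, limma). The value nearest to the controls was that of replicate 11, the array that stood apart in its B cell markers. Without it the difference was -1.65 and passed (adjusted p = 0.00582), and with array weights it was -1.79 (adjusted p = 0.000197). In the colon the difference was -0.28 ± 0.27. The ileal effect exceeded the colonic by -1.03 ± 0.40, which did not pass (adjusted p = 0.511) but was -1.63 with array weights (adjusted p = 0.0342). The intraepithelial lymphocyte markers given above were lower in the same groups, and their part was not tested.

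Ccl25 (TECK), the ligand of Ccr9, passed in no comparison. It was 9.70, 9.71 and 9.81 in the untreated ileum, 9.42, 9.91 and 9.96 in the ileum with vancomycin, 9.90, 9.39, 9.36 and 9.78 in the untreated colon and 9.53, 9.69 and 9.92 in the colon with vancomycin. All 4 groups overlapped. The 95% interval for colon minus ileum ran from -0.51 to 0.25 without antibiotic and from -0.46 to 0.36 with vancomycin. For the vancomycin effect the ileal interval was -0.38 to 0.43 and the colonic -0.27 to 0.49. Whether this probe set follows Ccl25 RNA was not checked, so the intervals describe its signal.

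Cxcr6, the receptor of Cxcl16 on effector and resident T cells, lies beside Ccr9 on chromosome 9 in the RefSeq table, in a row of neighbouring receptor genes with Xcr1, Ccr1, Ccr3 and Ccr2. Its levels were 7.14, 6.24 and 6.75 in the untreated ileum and 5.89, 5.72, 5.70 and 5.89 in the untreated colon. The colon was lower without overlap, by -0.91 ± 0.21 (adjusted p = 0.00575, limma). With vancomycin the ileum had 6.45, 6.34 and 5.78, which overlapped its controls, a difference of -0.52 ± 0.22 (adjusted p = 0.449). It was -0.31 without untreated replicate 1 and -0.32 without treated replicate 14. With vancomycin the colon had 5.81, 6.17 and 6.06, and the tissues overlapped (-0.18 ± 0.22). Its ligand Cxcl16 ranged from 10.88 to 11.92 over all 13 arrays and the groups overlapped in every comparison. In the row of 6 neighbours on chromosome 9, Ccr9 and Cxcr6 passed without antibiotic and Xcr1, Ccr1, Ccr3 and Ccr2 did not.

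The 250 bases before the start of Ccr9 and Cxcr6 are shown because these neighbouring receptors were both lower in the colon. They come from RefSeq's table for GRCm38.p6, at chr9:123766961-123767210 and chr9:123806227-123806476, both on the plus strand, and run 5′ to 3′. Neither stretch held any of the 3 motifs described below, so it has no capitals.
Ccr9: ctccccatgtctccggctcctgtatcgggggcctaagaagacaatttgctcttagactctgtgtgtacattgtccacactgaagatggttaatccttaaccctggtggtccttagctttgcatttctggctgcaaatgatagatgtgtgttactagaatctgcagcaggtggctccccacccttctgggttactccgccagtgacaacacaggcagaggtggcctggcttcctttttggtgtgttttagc
Cxcr6: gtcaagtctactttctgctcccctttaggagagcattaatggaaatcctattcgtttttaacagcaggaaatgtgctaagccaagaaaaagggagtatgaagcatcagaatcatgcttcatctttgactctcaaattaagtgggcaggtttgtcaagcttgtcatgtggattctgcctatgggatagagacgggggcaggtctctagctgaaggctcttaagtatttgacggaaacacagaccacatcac

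Cxcl9 (MIG), Cxcl10 (IP-10) and Cxcl11 (I-TAC) are the interferon-induced ligands of Cxcr3 and lie next to each other on chromosome 5. Without antibiotic the first and the last passed as lower in the colon, and Cxcl10 did not pass (-0.29, 95% interval -0.61 to 0.03). The genes' tissue differences were not tested against each other. Cxcl11 was 7.75, 8.39 and 7.03 in the untreated ileum and 5.25, 5.96, 5.61 and 5.27 in the untreated colon, a difference of -2.20 ± 0.30 (adjusted p = 0.000107, limma). With vancomycin it was 6.68, 7.72 and 7.37 in the ileum and 5.70, 5.55 and 5.31 in the colon, a difference of -1.74 ± 0.32 (adjusted p = 0.00182). Ileal and colonic arrays did not overlap in either case. Vancomycin made no difference past the threshold in either tissue (-0.47 ± 0.32 in the ileum, and a 95% interval of -0.65 to 0.65 in the colon). The ileal value was -0.18 without vancomycin replicate 11, -0.13 without untreated replicate 2 and -0.81 without untreated replicate 3. RefSeq, whose mouse assembly is of the C57BL/6J strain, lists Cxcl11 as a transcribed pseudogene, while the mice here were FVB.

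Cxcl9 was 10.58, 8.43 and 8.98 in the untreated ileum and 7.50, 7.23, 6.92 and 7.14 in the untreated colon. The colon was lower by -2.13 ± 0.43 (adjusted p = 0.00240, limma). With vancomycin the ileum had 8.79, 7.23 and 7.67. The vancomycin array of replicate 11 lay within the untreated range, and the other two arrays lay below it. The ileal difference of -1.43 ± 0.46 did not pass (adjusted p = 0.275), and it was -1.88 with an adjusted p of 0.0713 without replicate 11. Without untreated replicate 1, the highest array, it was -0.81 (adjusted p = 0.621). It passed with array weights (-1.87, adjusted p = 0.0134). With vancomycin the colon had 6.66, 7.13 and 7.02, below all ileal arrays of the same treatment, but the difference of -0.96 ± 0.46 did not pass (adjusted p = 0.199). Without ileal replicate 11 it was -0.51 (adjusted p = 0.481).

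Cxcl10 was 6.0, 5.59 and 6.01 in the untreated ileum, 5.37, 5.64 and 5.70 in the ileum with vancomycin, 5.48, 5.46, 5.59 and 5.78 in the untreated colon and 5.64, 5.68 and 5.87 in the colon with vancomycin. The groups overlapped in every comparison. Its largest difference between 2 groups was -0.30 ± 0.16, with vancomycin in the ileum (adjusted p = 0.548, limma). The receptor Cxcr3 ranged from 8.97 to 9.53 over all arrays, and its 95% interval for vancomycin in the ileum ran from -0.35 to 0.32. For colon minus ileum without antibiotic it ran from -0.39 to 0.24. Cxcr3 passed in no comparison.

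The stretches before the start of Cxcl9 and Cxcl10 are shown because both are neighbouring interferon-induced genes with an entry in the promoter table. Both come from RefSeq's table for GRCm38.p6 and lie on the minus strand, at chr5:92328080-92328329 and chr5:92348890-92349139. Capitals mark matches to the core of an interferon-stimulated response element, searched as GAAANNGAA, and to an NF-kB site, searched as GGANTTTCC.
Cxcl9: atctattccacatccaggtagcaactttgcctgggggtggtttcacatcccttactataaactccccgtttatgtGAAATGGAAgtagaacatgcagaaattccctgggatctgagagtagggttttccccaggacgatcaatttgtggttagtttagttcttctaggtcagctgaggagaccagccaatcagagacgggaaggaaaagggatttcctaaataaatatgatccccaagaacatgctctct
Cxcl10: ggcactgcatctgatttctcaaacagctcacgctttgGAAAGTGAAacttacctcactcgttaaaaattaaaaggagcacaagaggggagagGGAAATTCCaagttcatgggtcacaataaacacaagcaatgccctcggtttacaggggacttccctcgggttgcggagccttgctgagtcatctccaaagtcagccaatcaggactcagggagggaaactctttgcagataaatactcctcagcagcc

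Cxcl9 held 1 such core, GAAATGGAA, from base 175 to base 167 before its start. Cxcl10 held 1 core, GAAAGTGAA, from base 213 to base 205. It also held 1 match to the NF-kB form searched, GGAAATTCC, from base 158 to base 150. Wider forms of that site were not searched. Of 33 promoters of 31 members, 7 held the core, and 7.13% of all 32851 promoters of the same length in the table did. The form searched first, with an A after the core, was in 3 of the 33 (Ccl19, Cxcl10 and Cxcl14) and in 2.98% of all, so the count rests on a length chosen after matches had been seen. The interferon gamma-activated site, searched as TTCNNNGAA, was in 3 of the 33 (Ccl17, Cxcl14 and Ccr6) and in 7.02% of all. Both strands were searched, and no match overlapped a match to another motif. The other 10 members, Ccl5 and Cxcl11 among them, were not matched to a promoter entry. A match describes letters and not binding, and none says nothing about the factor.

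**Figure D3:**
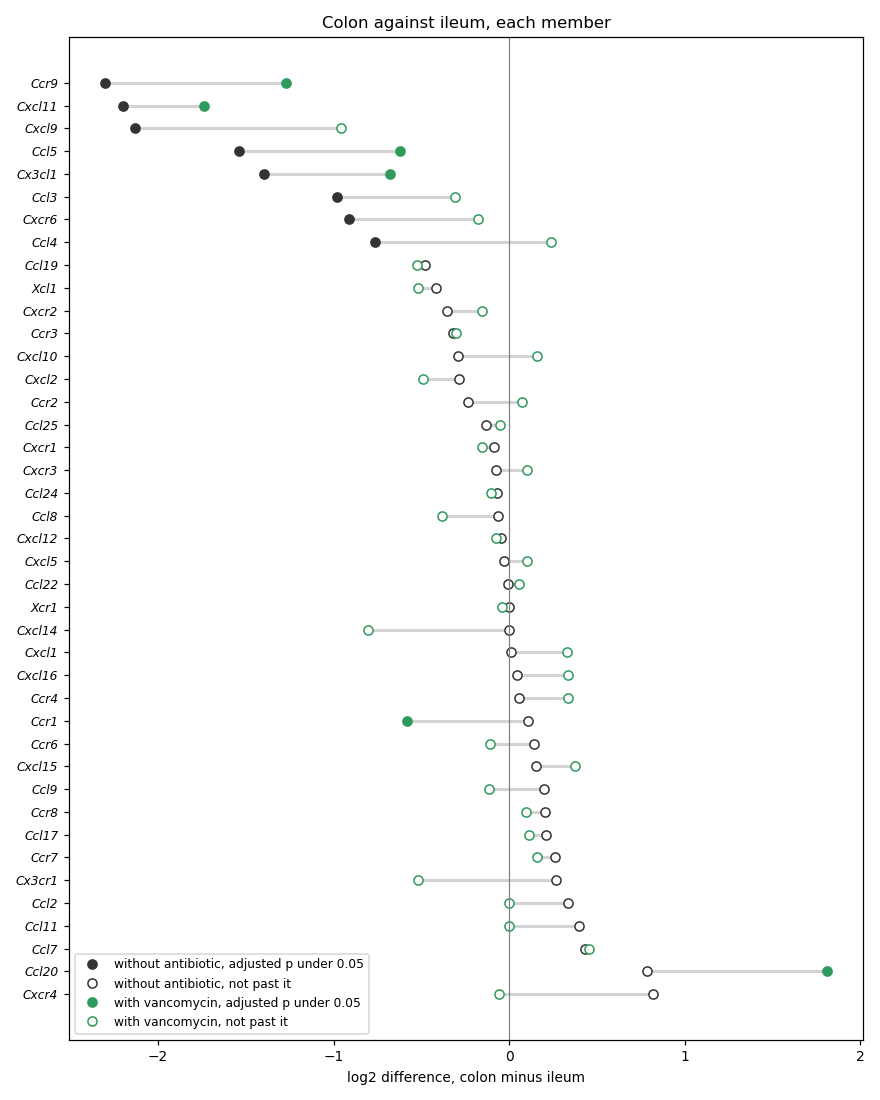
Colon minus ileum as a log2 difference (horizontal axis) for each of the 41 members, without antibiotic (black) and with vancomycin (green), filled where the adjusted p was under 0.05. Ccr9, Cxcl11, Cxcl9, Ccl5 and Cx3cl1 form the left end, from -2.30 to -1.40 without antibiotic, and Ccl20 with vancomycin lies alone on the right at 1.81.

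Cx3cl1 (fractalkine), the membrane-bound ligand of epithelium and endothelium, was higher in the ileum. Its levels were 8.21, 8.11 and 8.03 in the untreated ileum and 6.67, 6.52, 6.66 and 7.03 in the untreated colon. Every ileal array exceeded every colonic array, and the difference was -1.40 ± 0.16 (adjusted p = 2.55e-05, limma). With vancomycin it was 7.26, 7.87 and 7.80 in the ileum and 6.93, 6.99 and 6.97 in the colon, again apart, by -0.68 ± 0.18 (adjusted p = 0.0160). That call was lost without ileal replicate 13 (-0.57, adjusted p = 0.0820), without ileal replicate 14 (-0.60, adjusted p = 0.0699) and with only the 2 groups in the fit (adjusted p = 0.0744). All vancomycin arrays of the ileum lay below the untreated ones, a difference of -0.47 ± 0.18 that did not pass (adjusted p = 0.367). It was -0.28 without replicate 11, the lowest of those arrays. The mean of 10 epithelial markers was 15.07 to 15.18 in the untreated ileum, 14.57 to 15.04 with vancomycin, 14.44 to 14.71 in the untreated colon and 14.25 to 14.45 in the colon with vancomycin, and their part was not tested.

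Cx3cr1, the receptor of Cx3cl1 and a marker of resident gut macrophages, had the smallest unadjusted p of any member in the colon. It was 7.53, 7.34, 7.48 and 8.19 without antibiotic and 7.15, 6.79 and 6.62 with vancomycin. All treated arrays lay below all untreated ones. The difference was -0.78 ± 0.20 and did not pass (adjusted p = 0.133, limma). Without untreated replicate 5, the highest array, and in the other fits with 1 array left out, it lay between -0.93 and -0.60. In the ileum Cx3cr1 was 7.25, 7.50 and 7.36 without antibiotic and 7.47, 7.54 and 7.11 with vancomycin, with a 95% interval of the difference from -0.46 to 0.47. The difference between the tissues' effects was 0.79 ± 0.30 (adjusted p = 0.491). The summed log2 level of 11 macrophage and monocyte markers was 104.37 to 110.03 in the untreated colon and 102.0 to 105.54 with vancomycin. With vancomycin in the colon 0 of the 11 passed, where 0.0102% of all probe sets did. At an unadjusted p under 0.05 (limma), 2 of the 11 were lower and 0 higher, against 15.9% of all probe sets in either direction. In sign, 5 of the 11 differences were positive and 6 negative. Their part was not tested.

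Ccl20 (MIP-3 alpha), made by epithelium over lymphoid follicles, was the one member that passed as higher in the colon. Under vancomycin it was 9.56, 11.64 and 10.90 in the colon and 9.19, 8.58 and 8.90 in the ileum. The tissues did not overlap, and the difference was 1.81 ± 0.38 (adjusted p = 0.00465, limma). With only these 2 groups in the fit the adjusted p was 0.0538. Without antibiotic Ccl20 was 9.85, 10.30, 9.83 and 9.46 in the colon and 9.21, 8.99 and 9.03 in the ileum, also without overlap, but the difference of 0.78 ± 0.36 did not pass (adjusted p = 0.157). It passed with only the 2 untreated groups in the fit (adjusted p = 0.00972) and with array weights (adjusted p = 0.0489).

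Within the colon the vancomycin arrays of Ccl20 straddled the untreated range. Replicates 13 and 14 lay above all controls, and replicate 11 lay within them. The difference was 0.84 ± 0.36 (adjusted p = 0.278, limma). Without colonic replicate 11 it was 1.41 and passed (adjusted p = 0.0360), and without colonic replicate 13, the highest array, it was 0.37 (adjusted p = 0.664). Its receptor Ccr6, borne by B cells and some T cells, ranged from 5.57 to 8.94 and overlapped in every comparison, with standard errors of 0.61 to 0.65 for its vancomycin differences.

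The monocyte attractants Ccl2 and Ccl7, their receptor Ccr2, and Ccl8 with its listed receptor Ccr8 passed in no comparison. Ccl8 (MCP-2) was 9.04, 7.98, 7.79 and 8.79 in the untreated colon and 7.85, 7.34 and 6.69 with vancomycin. The colonic groups overlapped through treated replicate 11, and the difference was -1.11 ± 0.38 (adjusted p = 0.200, limma). In the ileum Ccl8 was 9.29, 8.21 and 7.89 without antibiotic and 8.10, 7.38 and 7.55 with vancomycin, a difference of -0.79 ± 0.41 (adjusted p = 0.533). It was -0.998 without ileal replicate 11 and -0.37 without untreated replicate 1, the highest array. Ccl8 had the same sign in both tissues, and the test of a difference between them gave 0.32 ± 0.56. The vancomycin differences of Ccr8 were 0.12 in the ileum and 0.01 in the colon.

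Ccl7 (MCP-3) was 6.28, 6.21 and 6.66 in the untreated ileum and 6.90, 6.86, 6.57 and 6.93 in the untreated colon, with 1 colonic array inside the ileal range. The colon was higher by 0.43 ± 0.16 without antibiotic (adjusted p = 0.0697, limma) and by 0.45 ± 0.17 with vancomycin (adjusted p = 0.0920). The first passed without untreated colonic replicate 3 (adjusted p = 0.0393) or untreated ileal replicate 3 (adjusted p = 0.0365), and the second without ileal vancomycin replicate 11 (adjusted p = 0.0437). Both stayed positive in every fit run. Ccl2 (MCP-1), the main ligand of Ccr2 on inflammatory monocytes, ranged from 7.40 to 8.11, and Ccr2 from 6.66 to 7.59. Neither passed in limma, although Ccl2 passed with array weights as higher in the untreated colon (0.40, adjusted p = 0.0375). Their vancomycin differences lay between -0.24 and 0.30. Ccl11 and Ccl24, the eotaxins, and their receptor Ccr3 passed in no comparison. The largest vancomycin difference of those genes was -0.41 ± 0.19, for Ccl11 in the colon (adjusted p = 0.303).

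The neutrophil attractants and their receptors passed in no comparison. The vancomycin differences of Cxcl1, Cxcl2, Cxcl5 and Cxcl15 lay between -0.15 and 0.23 over both tissues, and those of Cxcr1 and Cxcr2 between -0.24 and 0.06. Cxcl2 was 6.07, 6.51 and 6.11 in the ileum with vancomycin and 5.76, 5.57 and 5.89 in the colon with vancomycin. All ileal values were higher, and the difference of -0.49 ± 0.16 lay just short of the threshold (adjusted p = 0.0507, limma). It was -0.57 with an adjusted p of 0.0314 without ileal replicate 11, and it also passed with array weights (-0.71, adjusted p = 0.00242). The mean of 7 neutrophil markers lay between 6.09 and 6.66 in all 13 arrays.

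The stretches before Cxcl1 and Cxcl2, classical targets of NF-kB, are shown because both neighbours carry the same NF-kB site. They are from RefSeq's table for GRCm38.p6, chr5:90890995-90891244 and chr5:90903649-90903898, both on the plus strand, with the site in capitals.
Cxcl1: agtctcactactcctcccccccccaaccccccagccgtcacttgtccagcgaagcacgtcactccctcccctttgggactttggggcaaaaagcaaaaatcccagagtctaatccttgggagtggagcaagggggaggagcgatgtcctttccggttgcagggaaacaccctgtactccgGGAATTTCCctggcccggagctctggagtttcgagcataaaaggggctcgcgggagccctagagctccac
Cxcl2: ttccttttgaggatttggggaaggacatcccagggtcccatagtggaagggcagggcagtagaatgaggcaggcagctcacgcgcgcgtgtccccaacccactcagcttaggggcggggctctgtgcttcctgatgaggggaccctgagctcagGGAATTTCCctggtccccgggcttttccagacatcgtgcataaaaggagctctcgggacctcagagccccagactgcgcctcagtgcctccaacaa

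Each held GGAATTTCC, from base 70 to 62 before the start in Cxcl1 and from base 96 to 88 in Cxcl2. Sites of this kind were in 4 of 33 member promoters (Cxcl1, Cxcl2, Cxcl10 and Ccr3), and in 1.07% of all 32851. The form searched first, with a G before the site, was in 3 (Cxcl1, Cxcl2 and Ccr3) and in 0.356% of all.

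Several members of lymphoid tissue depended on the ileal array that stood apart. Cxcr4, the receptor of Cxcl12, was 9.04, 8.52 and 9.00 in the untreated ileum and 11.01, 8.80 and 8.99 with vancomycin, where the high value is replicate 11. The difference was 0.75 ± 0.45 (adjusted p = 0.596, limma) with that array and 0.04 without it. Ccr6 in the same arrays was 7.17, 6.04 and 7.16, and 8.94, 6.93 and 5.57. Its difference turned from 0.36 to -0.54 without replicate 11.

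Ccl19, a ligand of Ccr7 with near-identical copies in the mouse genome, was 9.42, 8.63 and 8.04 in the untreated ileum and 10.23, 8.20 and 7.38 with vancomycin. Its difference moved from -0.09 to -0.91 without replicate 11. Xcr1, the receptor of cross-presenting dendritic cells, was 7.53, 7.40 and 7.25, and 8.22, 7.30 and 6.56, and moved from -0.03 to -0.46. In all 4 genes replicate 11 was the highest of the 6 ileal arrays, and none passed with or without it. Their difference between colon and ileum under vancomycin turned from -0.06 to 0.65 for Cxcr4, from -0.11 to 0.79 for Ccr6, from -0.52 to 0.29 for Ccl19 and from -0.04 to 0.39 for Xcr1 without it. Of the 6 ileal arrays, replicate 11 also had the highest mean of endothelial (8.68) and fibroblast (10.80) markers and the lowest of epithelial markers (14.57). The part of B cell and follicle RNA, or of these other tissue parts, in the values of the 4 genes was not tested.

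**Figure D4:**
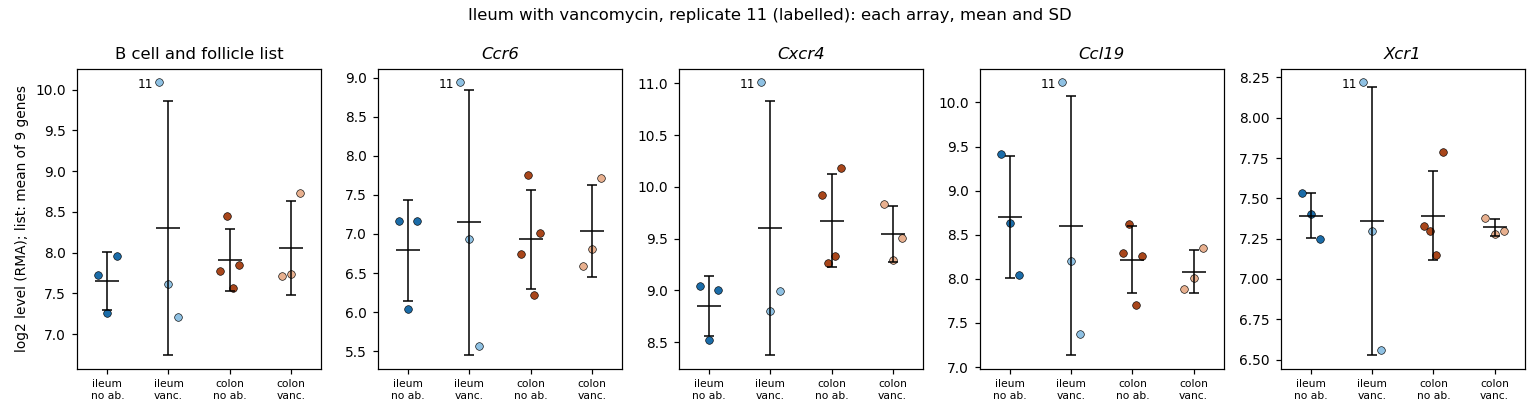
Log2 RMA level by group, with 1 point per array and bars for the mean and SD, for the mean of 9 B cell and follicle markers and for Ccr6, Cxcr4, Ccl19 and Xcr1. The point labelled 11, replicate 11 of the ileum with vancomycin, is the highest array in each panel, at 10.09 for the markers and 11.01 for Cxcr4.

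Ccr7, which guides T cells and dendritic cells to lymph nodes, was 10.31, 9.96 and 9.59 in the untreated ileum and 10.49, 10.38 and 10.27 with vancomycin. In the colon it was 10.03, 10.45, 10.26 and 10.12 without antibiotic and 10.52, 10.48 and 10.62 with vancomycin. The treated arrays lay above all controls in the colon and overlapped them in the ileum. The differences were 0.43 ± 0.18 and 0.33 ± 0.17 (adjusted p = 0.431 and 0.349, limma), neither past the threshold. Without untreated replicate 3, the lowest array, the ileal difference was 0.25.

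Cxcl14, an epithelial chemokine, was 7.87, 8.75 and 8.99 in the untreated ileum and 9.19, 9.14 and 9.00 with vancomycin. The treated arrays lay just above the controls, a difference of 0.57 ± 0.29 that did not pass (adjusted p = 0.533, limma). Without untreated replicate 1, the lowest array, it was 0.24. Under vancomycin it was lower in all colonic arrays (8.69, 8.22 and 8.01) than in all ileal ones, by -0.80 ± 0.29 (adjusted p = 0.0884). It passed with only those 2 groups in the fit (adjusted p = 0.0477) and with the replicate number as a block (adjusted p = 0.0108). Ccl22, a ligand of Ccr4, was 7.33, 7.31 and 7.49 in the untreated ileum and 7.17, 7.03 and 6.85 with vancomycin, lower without overlap, by -0.36 ± 0.18 (adjusted p = 0.522). The remaining members, Ccl17, Cxcl12, Xcl1, Ccr4 and Ccr8, had vancomycin differences between -0.18 and 0.12 and passed in no comparison. Of these, Xcl1, the ligand of Xcr1, had the largest difference between tissues, at -0.52 ± 0.20 under vancomycin (adjusted p = 0.105).

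Set beside each other, ligand and receptor seldom passed together. Among 25 pairs of a ligand and its receptor, 1 had both genes past the threshold in any comparison: Ccl5 and Ccr1, both lower in the colon than in the ileum under vancomycin. That pair rests on the Ccr1 call, which the alternatives above lost. In the comparison of tissues without antibiotic, 6 pairs had the ligand alone past it, 2 the receptor alone and 17 neither. With vancomycin 4 had the ligand alone, 3 the receptor alone and 17 neither. In the ileum, Ccl5 alone passed in its 2 pairs. Pairs share genes, so these counts are not independent of each other.

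Other chemokine genes outside the 41 were read from fixed lists. Of 14 other chemokines, Ccl28, an epithelial ligand that draws IgA plasma cells through Ccr10, was lower with vancomycin in the ileum by -1.11 ± 0.21 (adjusted p = 0.0358, limma), and 0 passed in the colon, where 2 had an unadjusted p under 0.05. Those were the monocyte and platelet chemokines Ccl6 and Pf4, with differences of -0.83 ± 0.18 and -1.41 ± 0.26 (adjusted p = 0.0968 each). Without antibiotic, Ccl28, Pf4 and Ccl6 were higher in the colon, by 1.34, 1.47 and 1.03, the opposite direction to the 8 members that passed. With vancomycin Ccl28 was higher there by 2.73 and Ccl12 lower by -0.56. Of 9 other and atypical receptors, 8 had a named probe set. In limma 0 passed for vancomycin in either tissue, with 2 at an unadjusted p under 0.05 in the ileum (Ccr10, -0.50, and Cmklr1, 0.51) and 0 in the colon. Ccr10 was higher in the colon under vancomycin, by 0.72.

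Of 31 listed genes of receptor signalling, 25 had a named probe set and 0 passed for vancomycin in either tissue in limma, with 0 and 2 at an unadjusted p under 0.05 in ileum and colon. The colon was lower than the ileum for 6 without antibiotic, among them the phospholipase Plcb3 (-1.56), the G protein subunit Gnai3 (-1.17) and the arrestin Arrb1 (-1.13), and for 7 with vancomycin, among them Arrb1 (-1.42), the receptor kinase Grk5 (-1.40) and Elmo1 (-1.27). Of 20 listed inducers of chemokine genes, 18 had a named probe set and 0 passed for vancomycin in either tissue, with 4 and 2 at an unadjusted p under 0.05. The largest was Irf1, an interferon-induced transcription factor, at -1.23 ± 0.29 in the ileum (adjusted p = 0.0868) and 0.67 ± 0.27 in the colon (adjusted p = 0.249). Without antibiotic the microbial sensors Tlr4 (3.01), Tlr5 (1.24) and Tlr2 (0.96) were higher in the colon, and Relb (-2.11), Irf1 (-1.40) and Nfkbia (-0.56) lower.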

How the data were processed

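RNA was extracted with the QIAGEN miRNeasy kit, labelled with biotin and hybridised to mouse arrays of Affymetrix (labels' protocols). The authors deposited log2 values, 1 per probe set and array, for which the submitters' processing notes name Affymetrix Expression Console 1.4.1.46 together with RMA without saying what each did. RMA corrects background, quantile-normalizes arrays and summarises probes, so a shift of all genes together is removed. Array medians were 7.98 to 8.14.

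A single linear model with a mean for each of the 4 groups was fitted to the 13 arrays (limma 3.58.1 under R 4.3.3; lmFit, then eBayes), so that groups share 1 spread. P-values of the 5 contrasts were adjusted (Benjamini-Hochberg) across all 19572 probe sets that carry 1 gene symbol, threshold 0.05. Errors are standard errors of that fit unless named SD. The script was tested on simulated data. The members and gene lists were chosen with earlier results of these data known. Members were described by a rule of smallest p and call, which named 26, with their partners. The others were named after their values were seen. Alternatives were array weights, a trended and robust spread, a fit of the compared groups, a filter of dim probe sets, values above 16 set to 16, median centring, a repeat of quantile normalization, the lowest-mean probe set, the replicate number as a block, and each array left out. The lowest-mean probe set could not change a member's result, since each member has 1 probe set. Promoters (RefSeq, GRCm38.p6) were searched for 3 motifs. The interferon-response and NF-kB motifs were each shortened by a letter after matches to a longer form had been seen, which raises their number of matches: the longer interferon-response form was not in Cxcl9. Deviations from the group means of same-numbered colonic and ileal arrays correlated at 0.236, 0.176 and 0.107 with vancomycin, each over 0.1, and at 0.0754, 0.0302 and -0.0162 without antibiotic. Of 6 ileal arrays, 3 correlated best with the colonic array of their own number. With vancomycin, ileal replicate 14 correlated more with colonic replicate 13 (0.149), and without antibiotic colonic replicate 5 and ileal replicate 3 reached 0.162. These values do not settle whether the numbers mark pairs, and the labels do not say that they mark a mouse. The reported fit used no pairs, and the replicate block as a fixed term paired the numbers in both treatments.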

Additional observations from a re-analysis of the deposited data

Results flagged for a closer look

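Ccl4 is singled out because vancomycin arrays lay on opposite sides of their controls in the tissues. In the ileum all 3 vancomycin arrays (7.25 to 7.36) lay below all untreated arrays (7.43 to 8.07), and in the colon all 3 (7.37 to 7.80) lay above all untreated arrays (6.97 to 7.18). The ileal minus the colonic effect was -0.998 ± 0.24 (SE), with an adjusted p of 0.177 (limma), so the difference did not pass the threshold, and it lay between -1.19 and -0.87 with each array left out. Over all probe sets, 80 of 19572 (0.409%) separated in both tissues in opposite directions. Among the 41 members, 0 had a colonic array without antibiotic set apart from the other 3 by more than Dixon's critical value for groups of 4, a screen that chance alone would pass in about 1 in 20 groups.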

How the results depend on the processing

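Each comparison's members with a call or the smallest p kept their direction in every alternative run, with 0 reversals, although the ileal difference of Ccr6, which is not among them, turned from 0.36 to -0.54 without ileal vancomycin replicate 11. In the ileum the count of 1 member became 0 with only the 2 groups compared (Ccl5 at an adjusted p of 0.0524), 0 without the 33.3% dimmest probe sets, a filter that removed Ccl5 itself and kept 24 of 41 members, and 5 with array weights. With each array left out it was 1 to 2. In the colon the count of 0 was 0 to 1 with each array left out. For the tissues without antibiotic, 8 became 4 without the dimmest probe sets. That filter removed Ccl3, Ccl5, Cxcl11 and Cxcr6 themselves, and no call of a kept member was lost. With vancomycin, 6 became 3 with only the 2 groups and 10 with array weights, and was 4 to 8 with each array left out. It became 3 without the dimmest probe sets, a filter that removed Ccl5, Cxcl11 and Ccr1 and lost no call of a kept member. For the difference between effects, 0 became 2 with array weights, 1 with a trended and robust spread and 1 with values above 16 set to 16. For array weights no share of all probe sets was computed beside these counts. The other alternatives left these counts within 1.5 times the reported ones, the lowest-mean probe set by construction. The replicate block as a fixed term gave 8 and 6 members for the tissues without and with vancomycin and 0 for the difference between effects. Under vancomycin it lost Ccr1 (adjusted p = 0.0533), gained Cxcl14 (adjusted p = 0.0108) and changed no other call. As a random replicate block it gave 1 and 0 for the ileum and the colon. Some members passed only in alternatives. For the untreated tissues these were Ccl2, Ccl7, Ccl11 and Ccl20 with array weights, and Ccl20 and Cxcr4 with only the 2 groups. For the tissues with vancomycin they were Ccl7, Cxcl2, Xcl1 and Cx3cr1 with array weights, Xcl1 without colonic replicate 11, and Cxcl2 with a repeat of quantile normalization (adjusted p = 0.0479), with a trended and robust spread (0.0487) and with values above 16 set to 16 (0.0414). The reported forms of the interferon-response and NF-kB motifs were shortened after matches had been seen. With the longer forms, searched first, 7 member promoters became 3 for the interferon-response motif and 4 became 3 for NF-kB. The number of arrays limits all calls, and no level was compared with background.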
